A study of Mus musculus with 6 samples.

Results

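The 8 genes described here are C1qa, C1qb, C1s, C2, C3, Cfb, Serping1 and C3ar1, among 28786 gene names on the array. They were taken by name as components, a regulator and a receptor of the complement system, and every noncontrol probe carrying one of the names was used, 12 probes in all. C1s is now named C1s1 in RefSeq. Hearts came from male C57BL/6 mice, a common inbred strain, in 2 groups of 3 biological replicates. In the adrenalectomized group both adrenal glands, the main source of corticosterone and aldosterone, had been removed when the mice were 1 month old, and the sham group had the operation without removal. Hearts of both groups were collected 6 months after surgery per the protocol, whereas a sample label gives 6 months as the age itself, which leaves the age open by roughly 1 month. Circulating hormone levels were not analysed here. The comparison asks whether heart RNA of these genes differs between mice without and with adrenal glands.

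Complement is a set of plasma and cell-surface proteins that mark and destroy microbes and damaged cells. Its classical pathway starts when C1q binds a target and, of the attached proteases C1r and C1s, C1s cleaves C4 and C2. The alternative pathway is driven by factor B, and both routes converge on cleavage of C3. Fragments of C3 coat the target or, as C3a, signal through receptors such as the one encoded by C3ar1. In tissues, much of the C1q comes from macrophages, whereas C3, factor B and C1s are also made by stromal cells. Glucocorticoids restrain much of inflammatory gene expression through the glucocorticoid receptor.

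Each heart was hybridised to a 1-colour Agilent array of 60-base probes. Signals are given as multiples of the 75th percentile of the same array, and levels of different probes are not set against each other. Differences are adrenalectomized minus sham on the log2 scale, each with its standard error (SE), and p-values come from limma with Benjamini-Hochberg adjustment over the 16947 genes tested. All 7 cardiomyocyte markers looked at were above background, with a summed signal of 2700.4 to 3006 in adrenalectomized hearts and 2919 to 3376 in sham hearts. Spots well above background made up 60.5% to 66.8% on adrenalectomized arrays and 57.7% to 60.2% on sham arrays. Adrenalectomized replicates 2 and 3 lay on slide 2, and adrenalectomized replicate 1 lay with the 3 sham arrays on slide 1, so a value with the slide as a block rests on adrenalectomized replicate 1 against the sham arrays. Arrays correlated pairwise across genes at a Pearson r of 0.982 to 0.991, where genes are not independent replicates, and the median SE of a difference was 0.141, with 3 arrays a group limiting the precision.

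What the arrays read is a short stretch of each RNA, and 7 of the 12 probes are printed, those of the C1q chains and of C3 and those that cross a splice junction. The probes for C1qa and C1qb report 2 of the 3 chains of C1q, and lie on chromosome 4 of the mouse build mm7, on the minus strand, at chr4:136274931-136274990 and chr4:136259100-136259159.
C1qa: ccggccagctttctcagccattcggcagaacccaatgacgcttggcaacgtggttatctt
C1qb: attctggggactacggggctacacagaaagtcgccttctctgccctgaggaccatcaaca
C3 is read by a bright probe at chr17:55414567-55414626 and a dim one at chr17:55435522-55435679, both on the minus strand, whose differences had opposite signs.
C3, first probe: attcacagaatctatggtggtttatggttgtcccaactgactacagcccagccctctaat
C3, second probe: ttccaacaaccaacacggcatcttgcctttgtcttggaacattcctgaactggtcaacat
The second C3 probe, the second C2 probe at chr17:32959305-32959480, the Cfb probe at chr17:32952681-32953037 and the Serping1 probe at chr2:84609527-84611033 cover more genome than their 60 bases, so each spans a splice junction and reads spliced RNA.
C2, second probe: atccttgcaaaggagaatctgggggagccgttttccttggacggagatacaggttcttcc
Cfb: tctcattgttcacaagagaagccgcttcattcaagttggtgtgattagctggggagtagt
Serping1: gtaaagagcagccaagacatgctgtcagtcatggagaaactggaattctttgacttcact
These 3 lie on the minus strand as well. Exons and untranslated regions were not assigned, because no annotation of mm7 was used here.

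None of the 8 genes passed the adjusted threshold of 0.05 in either direction (0 of 8, limma), where 0.0413% of all genes tested did, 0.0295% higher and 0.0118% lower. None had an unadjusted limma p under 0.05 either, which 12.3% of all genes had. The 8 genes were split evenly, 4 with a higher and 4 with a lower value in adrenalectomized hearts, and their median difference was -0.03, against 0.03 over all genes tested. Of all 16947 genes tested, 9593 had a higher and 7354 a lower value, the share to set beside the counts of each list below. For 6 of the 8, all but Cfb and C3ar1, the 95% interval of the difference lay within -0.44 to 0.43 on the probe that stood for the gene. A change of more than 1.36-fold lower or 1.34-fold higher lay outside each of these intervals. The limits do not hold for every reading of these genes. Second-probe intervals reached -0.59 for C3, 0.46 for C1s and 0.44 for C2, and intervals were wider with the slide as a block. In 2 of the 8, C1qb and C3ar1, every adrenalectomized heart was below every sham heart. That pattern held for 7.95% of all genes tested. In whole-heart RNA, fewer cells of a type and less RNA per cell cannot be told apart.

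**Figure D1:**
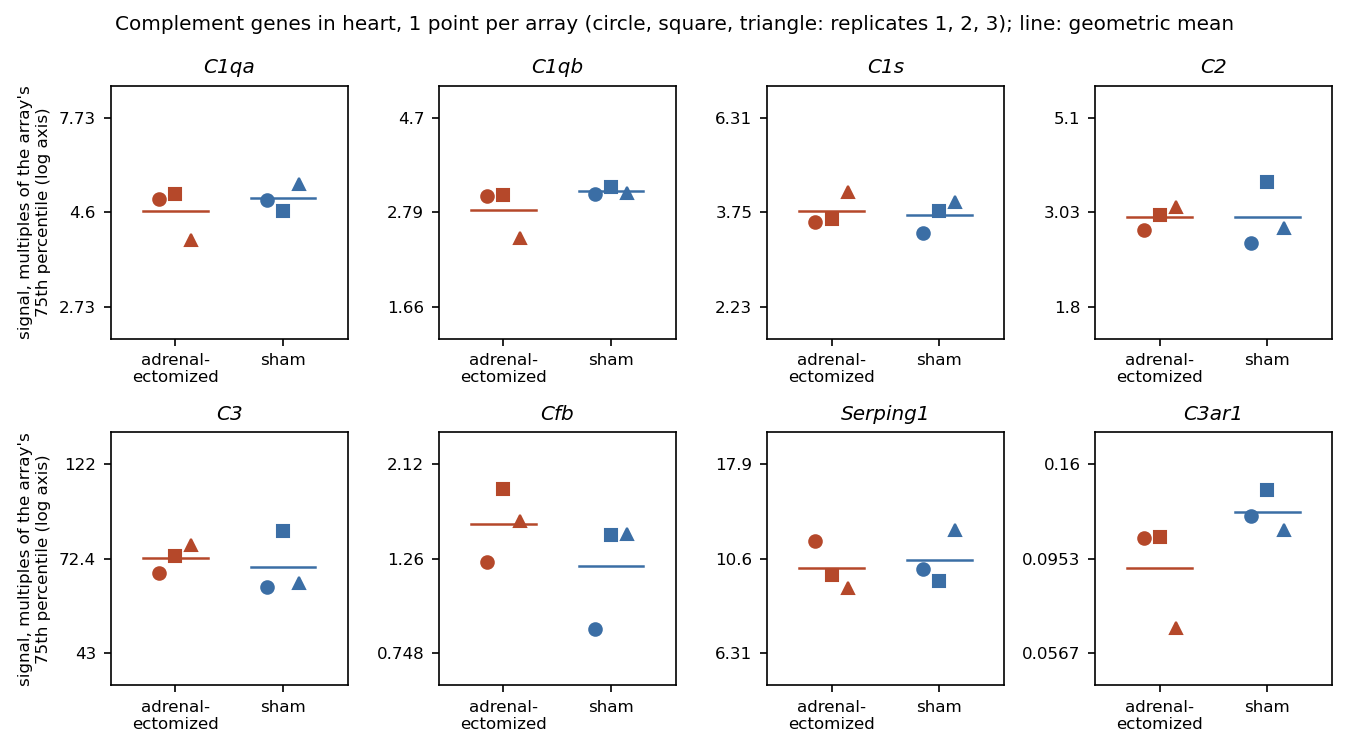
Signal of the 8 complement genes on each of the 6 arrays, as multiples of the 75th percentile of the array on a log axis that spans the same fold range in every panel; lines are geometric means of 3 arrays. The groups overlap in 6 genes, and in C1qb and C3ar1 the adrenalectomized points all lie below the sham points.

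The classical pathway starts with C1q, whose 3 chains are encoded by the neighbouring genes C1qb, C1qc and C1qa. C1qa, the A chain, read 4.96, 5.10 and 3.94 in adrenalectomized hearts, against 4.91, 4.64 and 5.37 in sham hearts. The groups overlapped, and only adrenalectomized replicate 3 was below all sham hearts. The difference was -0.10 (SE 0.14, 95% interval -0.42 to 0.22, limma adjusted p = 0.802), and it was 0.018 without adrenalectomized replicate 3. C1qb, the B chain, read 3.06, 3.08 and 2.43 in adrenalectomized hearts, against 3.1, 3.22 and 3.11 in sham hearts. Here the groups did not overlap, but adrenalectomized replicates 1 and 2 were close to sham replicate 1, and adrenalectomized replicate 3 stood apart below. The difference of C1qb was -0.15 (SE 0.13, 95% interval -0.44 to 0.15, limma adjusted p = 0.665), and it was -0.03 without adrenalectomized replicate 3 and -0.04 with the slide as a block.

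C1s, the protease that cleaves C4 and C2, read 3.56, 3.61 and 4.20 in adrenalectomized hearts, against 3.35, 3.77 and 3.97 in sham hearts. The groups overlapped, with a difference of 0.03 (SE 0.12, 95% interval -0.25 to 0.32, limma adjusted p = 0.931). A second C1s probe gave 0.13 (SE 0.14). The near-identical copy C1s2 could share signal with these probes. C2, which supplies the enzyme part of the classical C3 convertase, read 2.76, 2.98 and 3.11 in adrenalectomized hearts, against 2.56, 3.58 and 2.79 in sham hearts. All adrenalectomized values lay between sham replicates 1 and 2, and the difference was 0.00071 (SE 0.15, 95% interval -0.35 to 0.35). The second C2 probe, printed above, read 1.01 in each adrenalectomized heart, against 0.786, 1.09 and 0.975 in sham hearts, a difference of 0.10 (SE 0.14). With the slide as a block the differences were -0.053 for C1s and -0.096 for C2.

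C3, the protein on which the pathways converge, read 67.0, 73.6 and 77.9 in adrenalectomized hearts, against 62.0, 84.4 and 63.3 in sham hearts. The adrenalectomized hearts sat inside the sham range, and the difference was 0.07 (SE 0.15, 95% interval -0.28 to 0.43, limma adjusted p = 0.881). This probe was spotted 10 times on each array, so the spread of spots within an array can be set beside the spread between arrays. The SD over repeat spots was 0.04 to 0.09 on the log2 scale, whereas the SD between arrays was 0.11 among adrenalectomized hearts and 0.25 among sham hearts. On sham replicate 2 the 10 spots ran between 76.9 and 88.0, above every spot of sham replicates 1 and 3, whose highest was 65.9. The repeat spots do not cover the amplification, labelling and hybridisation of each array, whose part in the spread between arrays was not tested. With the slide as a block the difference of C3 was -0.048.

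**Figure D2:**
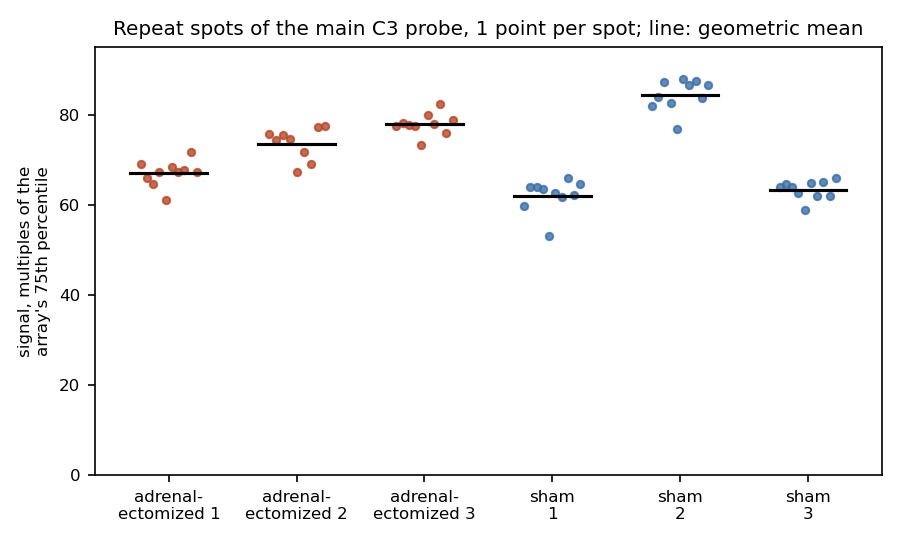
Signal of each repeat spot of the bright C3 probe on each array, as multiples of the 75th percentile of the array, with the geometric mean as a line; adrenalectomized replicate 2 has 9 spots because 1 outlier spot was left out. Spots of an array lie close together, and sham replicate 2 lies above sham replicates 1 and 3.

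The second C3 probe read 0.0595, 0.0740 and 0.0655 in adrenalectomized hearts, against 0.0688, 0.0897 and 0.0783 in sham hearts. Its groups overlapped, and its difference of -0.25 (SE 0.14, limma adjusted p = 0.493 with every probe tested) had the opposite sign to that of the bright probe. The mean of both probes gave -0.09. Neither probe passed the threshold, and the gap between them was not tested.

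Cfb, which encodes factor B, the protease of the alternative pathway, varied most among the 8 genes. It read 1.24, 1.85 and 1.55 in adrenalectomized hearts, against 0.856, 1.43 and 1.44 in sham hearts. Sham replicate 1 was the lowest and adrenalectomized replicates 2 and 3 were the highest, while adrenalectomized replicate 1 was below sham replicates 2 and 3. The difference was 0.34 (SE 0.24, 95% interval -0.24 to 0.92, limma adjusted p = 0.608). It was 0.09 without sham replicate 1 and 0.03 with the slide as a block, so its size rested on which arrays were used. The SD within groups was 0.37 for Cfb and 0.13 for C1s, the most even of the 8, against a median of 0.17 over all genes tested.

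Adipocyte markers moved over the arrays along with Cfb. All 8 of the 9 listed adipocyte genes that were measured had higher values in adrenalectomized hearts, by a median of 1.5, and Lep was not well above background. It was 7 of 8 with normexp on the local background, and with the slide as a block 7 of 8 were higher and the median was 0.24. Their summed signal was 341 to 565 in adrenalectomized hearts and 271 to 380 in sham hearts. Most of that sum on every array was Fabp4, which differed by 0.30 (SE 0.17). The 2 of smallest p were Ucp1, the uncoupling protein of brown fat, at 2.88 (SE 0.82, limma adjusted p = 0.274), and Plin1, a lipid droplet coat protein, at 1.79 (SE 0.68, limma adjusted p = 0.375). Centred on each gene's mean over the arrays, the marker median was -0.43, 1.55 and 1.21 on the adrenalectomized arrays, against -2.02, 0.11 and -0.43 on the sham arrays. Cfb on the same scale was -0.13, 0.45 and 0.19 on the adrenalectomized arrays, against -0.67, 0.08 and 0.09 on the sham arrays. Both were highest on adrenalectomized replicate 2 and lowest on sham replicate 1. The part of adipose tissue in the Cfb values was not tested.

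Interferon-responsive genes, among which Cfb, C2 and C3 are often counted, also had higher values. All 18 listed genes were measured and 18 of 18 had a higher value in adrenalectomized hearts, with a median of 0.22, where median centring gave 16 of 18, the slide as a block 15 of 18 and normexp on the local background 14 of 18. None passed the adjusted threshold, and 5 of 18 had an unadjusted limma p under 0.05, beside 12.3% of all genes tested. Cxcl9, an interferon-gamma induced chemokine, differed by 0.57 (SE 0.12, limma adjusted p = 0.206) and Rsad2, an antiviral enzyme, by 0.62 (SE 0.19, limma adjusted p = 0.295). The list's median over the arrays was 0.08, 0.10 and 0.06 on the adrenalectomized arrays, against -0.16, 0.21 and -0.33 on the sham arrays, with sham replicate 2 the highest, as for C2 and C3. Its part in the values of C2, C3 and Cfb was not tested. Of the 10 measured acute-phase and NF-kappaB targets 5 had higher and 5 lower values, with a median of 0.0005. The 2 of smallest p were Nfkbia, the NF-kappaB inhibitor, at -0.32 (SE 0.12), and the plasma protein gene Orm1, at 1.17 (SE 0.63). Orm1 was well above background on all 3 adrenalectomized arrays and 2 sham arrays, so it was tested only through the group where it was higher. Its difference was -0.06 with the slide as a block.

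Serping1 encodes C1 inhibitor, which blocks C1r and C1s. It read 11.7, 9.70 and 9.04 in adrenalectomized hearts, against 10.0, 9.40 and 12.5 in sham hearts. Replicate 1 was the highest adrenalectomized heart and replicate 3 the highest sham heart, and the groups overlapped. The difference was -0.07 (SE 0.16, 95% interval -0.43 to 0.30, limma adjusted p = 0.893), and it was 0.15 with the slide as a block.

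C3ar1, the C3a receptor of myeloid cells, had the smallest p of the 8. It read 0.107, 0.107 and 0.0653 in adrenalectomized hearts, against 0.120, 0.139 and 0.112 in sham hearts. The groups did not overlap, with adrenalectomized replicate 3 far below the rest. The difference was -0.44 (SE 0.21, 95% interval -0.95 to 0.06, unadjusted p = 0.0781, limma adjusted p = 0.456). It was -0.20 without adrenalectomized replicate 3 and -0.21 with the slide as a block. With normexp background correction on the local background it was -1.14 (limma adjusted p = 0.0241), under which 5949 genes passed in place of 7. A second C3ar1 probe was well above background on 1 array alone, adrenalectomized replicate 2, and was not tested.

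**Figure D3:**
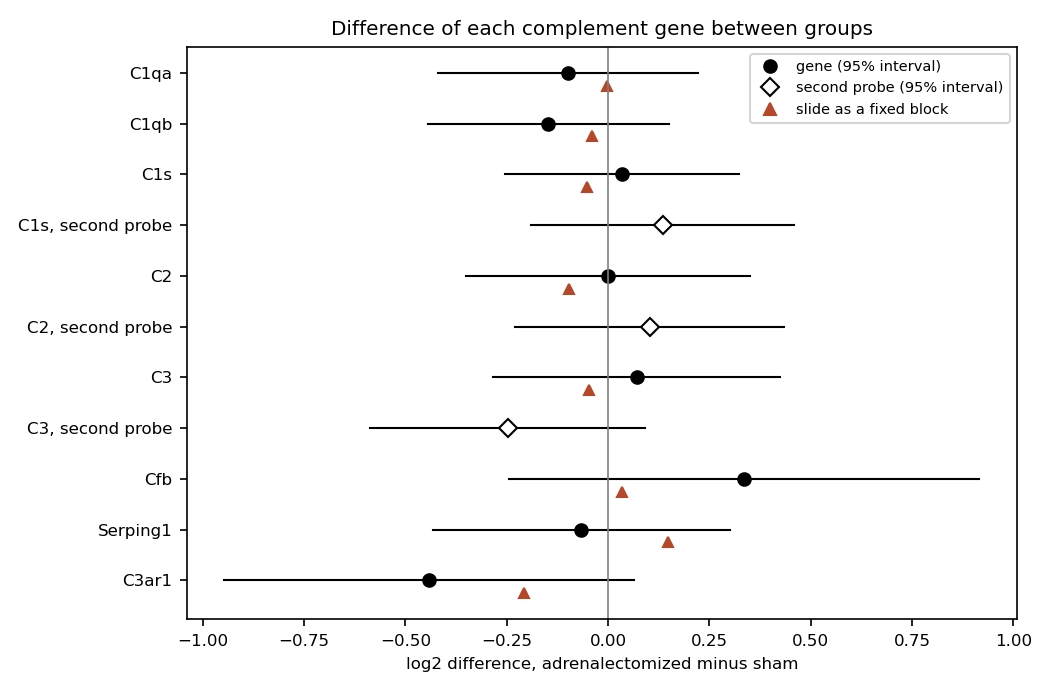
Log2 difference, adrenalectomized minus sham, of the 11 tested probes of the 8 genes; circles are the probe that stands for the gene, diamonds second probes, bars 95% intervals from limma, and triangles the gene's value with the slide as a fixed block. Every interval spans 0, and those of Cfb and C3ar1 are the widest.

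Some of the genes followed each other over the 6 arrays, and likeness is given as the root mean square (RMS) difference of values centred on each gene's mean, as a description. C2 and C3 were the most alike of the 28 pairs, with an RMS difference of 0.045: both were lowest on sham replicate 1 and highest on sham replicate 2. C1qa and C1qb followed at 0.079, and the least alike were Cfb and C3ar1 at 0.550. These points share arrays and their scaling. The 3 named genes nearest to Cfb of 12866 were Ltc4s at 0.135, Serpina3c at 0.139 and Siglecg at 0.143. Cfb and C2 lie next to each other on chromosome 17 and differed by 0.284.

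C1qa, C1qb, C3ar1 and Serping1 were all lowest on adrenalectomized replicate 3, and so was the third C1q chain. C1qc, named after its values were seen, read 7.46, 8.22 and 7.03 in adrenalectomized hearts, against 8.53, 9.31 and 7.996 in sham hearts. Its groups overlapped, and the difference was -0.19 (SE 0.11, limma adjusted p = 0.551). Macrophage markers, all 15 of which were measured, had 6 higher and 9 lower values with a median of -0.01, and 8 higher and 7 lower ones with normexp on the local background. Their summed signal was 121 to 143 in adrenalectomized hearts and 111 to 137 in sham hearts. Most of that sum on every array was Lyz2, which differed by 0.04 (SE 0.14). The marker median was -0.04, 0.09 and -0.11 on the adrenalectomized arrays, against 0.04, 0.09 and -0.04 on the sham arrays, and was likewise lowest on adrenalectomized replicate 3. Of the 2 with the smallest p, Cx3cr1, the fractalkine receptor, differed by -0.49 (SE 0.15, limma adjusted p = 0.300) and F13a1, a coagulation factor subunit, by -0.41 (SE 0.18, limma adjusted p = 0.421). The macrophages' part in the C1q and C3ar1 values was not tested.

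**Figure D4:**
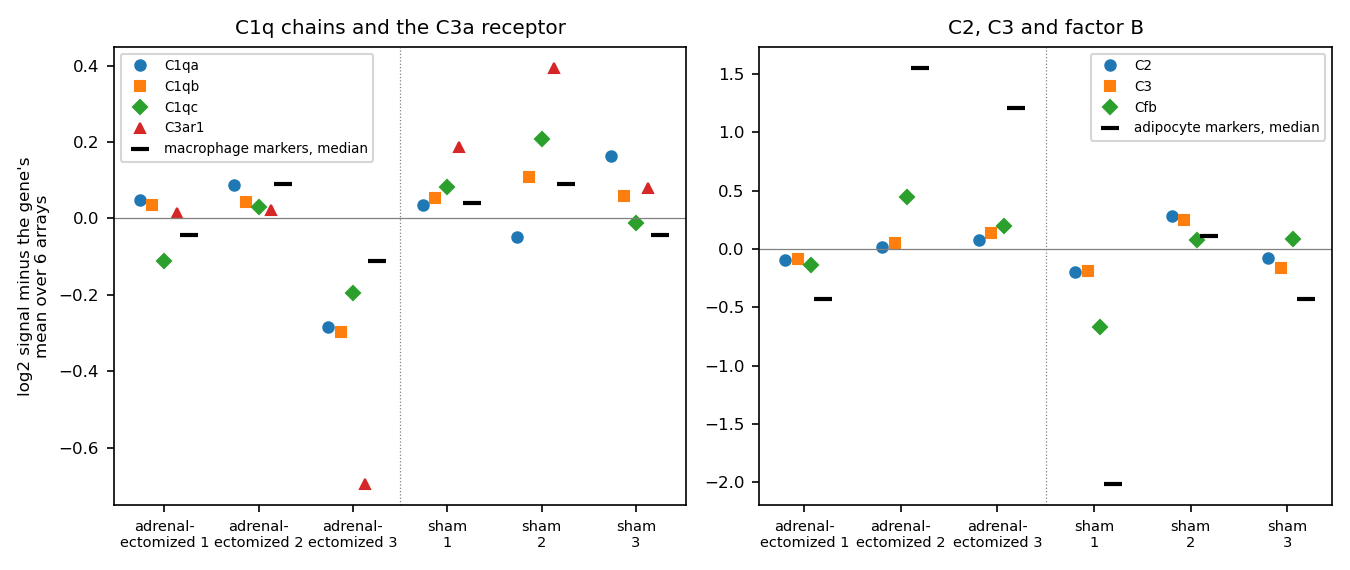
Log2 signal minus the gene's mean over the 6 arrays for the C1q chains and C3ar1 (left) and for C2, C3 and Cfb (right), with the median of the macrophage or adipocyte markers as a bar; the vertical scales differ. Adrenalectomized replicate 3 is low in the left panel, and sham replicate 1 is low in the right one.

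Around these 8 genes, 49 other complement genes were looked at, of which 47 were on the array and 30 were bright enough to test. Those tested were split into 15 with higher and 15 with lower values in adrenalectomized hearts, with a median of 0.0098, and 0 of 30 passed the adjusted limma threshold. At an unadjusted limma p under 0.05 there were 3 higher and 4 lower, 7 of 30, beside 12.3% of all genes. Groups did not overlap for 6 with higher and 3 with lower values, where 10.4% and 7.95% of all genes were so. With normexp on the local background 11 of them passed, 2 higher and 9 lower, among which Fcna, Itgam and Vsig4 were lower at -0.65, -0.91 and -0.71 and Cd59a was higher at 0.51.

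Among the recognition molecules and proteases of the classical and lectin pathways, 4 of the 9 tested had higher and 5 lower values. Fcna, a ficolin that binds sugars, read 0.317, 0.392 and 0.268 in adrenalectomized hearts, against 0.375, 0.476 and 0.505 in sham hearts. The groups overlapped in 1 array, and the difference was -0.48 (SE 0.18, limma adjusted p = 0.371). C4b, the substrate of C1s, differed by 0.04 (SE 0.16), and C1ra, its partner protease, by 0.03 (SE 0.11). C4b and C1ra were also named after their values were seen, and their near-identical copies C4a and C1rb could share signal.

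Properdin and adipsin are the other alternative pathway components on the list. Cfp, which encodes properdin, the stabiliser of the alternative C3 convertase, read 3.00, 3.24 and 2.80 in adrenalectomized hearts, against 3.51, 4.09 and 3.63 in sham hearts. The groups did not overlap, and the difference was -0.31 (SE 0.11, limma adjusted p = 0.361), the same size with the slide as a block, -0.32. Cfd, which encodes adipsin, the fat-derived protease that cleaves factor B, read 12.1, 40.5 and 38.4 in adrenalectomized hearts, against 4.003, 29.5 and 9.82 in sham hearts. Its spread was wide within both groups, and the difference of 1.34 (SE 0.77, limma adjusted p = 0.525) was 0.20 with the slide as a block. Like the adipocyte markers it was highest on adrenalectomized replicate 2 and lowest on sham replicate 1. Adipose tissue's part in the Cfd values was not tested, and Cfd was named after its values were seen.

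Of 7 terminal components on the list, 3 were tested. C6, a part of the membrane attack complex, read 0.0723, 0.0984 and 0.0802 in adrenalectomized hearts, against 0.0691, 0.0654 and 0.0606 in sham hearts, with no overlap, and differed by 0.35 (SE 0.14, limma adjusted p = 0.391). It was 0.15 with the slide as a block, and -0.87 (limma adjusted p = 0.0247) with normexp on the local background. Hc, the C5 gene, named after its values were seen, differed by 0.42 (SE 0.70), by -0.41 with the slide as a block and by -0.78 (limma adjusted p = 0.0498) with normexp on the local background. C8a, C8b and C9 were not well above background on all arrays of a group.

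Of the 10 regulators tested, 5 had higher and 5 lower values. Cd59b, a membrane inhibitor of the attack complex, read 0.667, 0.653 and 0.568 in adrenalectomized hearts, against 0.531, 0.532 and 0.510 in sham hearts, a difference of 0.26 (SE 0.11, limma adjusted p = 0.403). The groups did not overlap, and Cd59a, its near copy, differed by 0.19 (SE 0.12), also with no overlap. Cd59a was named after its values were seen.

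The receptors held the smallest p-value of the 30. Itgax, the alpha chain of complement receptor 4 (CD11c), read 0.216, 0.342 and 0.274 in adrenalectomized hearts, against 0.158, 0.187 and 0.149 in sham hearts. Every adrenalectomized heart was above every sham heart, and the difference was 0.73 (SE 0.19, limma adjusted p = 0.250), with 0.40 when the slide was a block. Itgam, the alpha chain of complement receptor 3 (CD11b), read 0.126, 0.135 and 0.109 in adrenalectomized hearts, against 0.143, 0.168 and 0.152 in sham hearts. It lay the other way, at -0.33 (SE 0.13, limma adjusted p = 0.378), without overlap. Vsig4, a macrophage receptor for C3b, read 0.334, 0.218 and 0.226 in adrenalectomized hearts, against 0.352, 0.324 and 0.405 in sham hearts, a difference of -0.49 (SE 0.19, limma adjusted p = 0.375). Its groups overlapped, and it was -0.10 with the slide as a block.

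**Figure D5:**
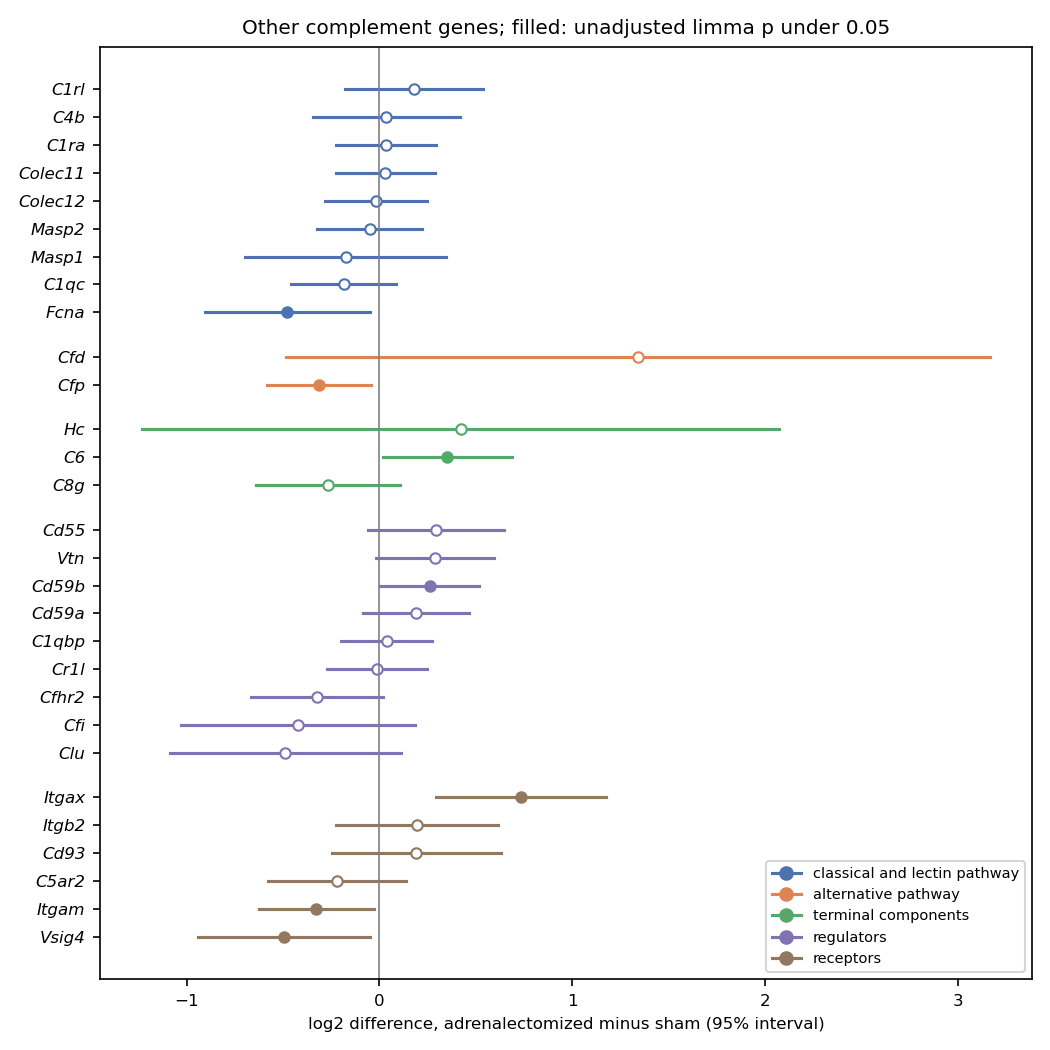
Log2 difference, adrenalectomized minus sham, with 95% intervals from limma, of 29 of the 30 other complement genes tested, ordered by role; filled points have an unadjusted p under 0.05. None passed after adjustment, and the intervals of Cfd and Hc are the widest.

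Markers of other cells that make complement were measured in the same fit, and none of the lists held a gene past the threshold. Liver, the main source of plasma complement, was represented by 4 of 9 hepatocyte genes. Alb, Apoa1, Apob and Ttr were not well above background, and the summed signal of the others was 4.28 to 5.49 in adrenalectomized hearts and 6.16 to 7.38 in sham hearts. Of the 4 tested, 2 had higher and 2 lower values, with a median of 0.03. That median was 0.29 with the slide as a block and -0.80 with normexp on the local background. Ahsg, the fetuin-A gene, read 2.55, 2.17 and 1.55 in adrenalectomized hearts, against 3.99, 4.76 and 3.18 in sham hearts. With Trf, which differed by -0.03 (SE 0.11), it made up most of the summed signal on every array. Ahsg differed by -0.94 (SE 0.23, limma adjusted p = 0.230) and Fgb, a fibrinogen chain, by 0.47 (SE 0.32). Fgb was well above background on all 3 adrenalectomized arrays and on 1 sham array, so it was tested only through the group where it was higher. All 10 fibroblast markers had lower values in adrenalectomized hearts, with a median of -0.19, where the slide as a block gave 6 of 10 and normexp on the local background 4 of 10. They were led by the collagen gene Col3a1 at -0.34 (SE 0.12) and Dcn, the decorin gene, at -0.32 (SE 0.13). Their summed signal was 191 to 219 in adrenalectomized hearts and 223 to 274 in sham hearts. Most of that sum on every array was Dcn, which read 126, 107 and 126 in adrenalectomized hearts, against 153, 165 and 131 in sham hearts. Fibroblasts' part in the C1s, C3 and Serping1 values was not tested.

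In the other lists, the 2 genes of smallest p were Tnni3 at -0.29 and Tnnt2 at -0.21 for cardiomyocytes, with a list median of -0.16 that was 0.08 under quantile normalization and 0.21 under normexp on the local background. They were Tek at -0.26 and Cdh5 at -0.20 for endothelium, with a median of -0.18 that was 0.13 under the same normexp setting. The 4 epithelial genes tested had a median of 0.78, which was 0.02 with the slide as a block and 0.31 with normexp on the local background. Cldn3 was at 0.90. Epcam is given as a bound on the fold between group means, 1.65-fold higher in adrenalectomized hearts, because no sham array read it well above background. The bound sets the mean of the bright group against, per array, the higher of the dimmest signal well above background and the probe's own. It does not allow for the spread between hearts. Epcam was tested only through the group where it was higher (limma adjusted p = 0.429). It read 0.0545, 0.122 and 0.0901 in adrenalectomized hearts, against 0.0551, 0.0635 and 0.0260 in sham hearts. The groups overlapped, and the log2 difference was 0.28 with the slide as a block. Mesothelial genes were split into 3 higher and 3 lower values with a median of -0.05, and the 2 of smallest p, Lrrn4 at -0.56 and Upk3b at -0.33, were both lower. Among blood cells, 3 of the 8 neutrophil genes were tested, 1 with a higher and 2 with lower values, with a median of -0.23. S100a9 was at -0.29 and S100a8 at -0.23. S100a8 was well above background on 2 adrenalectomized and 3 sham arrays, so it was tested only through the group where it was higher. As the middle one of 3 genes, S100a8 alone set the median of -0.23, which therefore rests on how this gene was selected. The neutrophil median was -0.83 with normexp on the local background and -0.52 with the slide as a block. This last value was again that of S100a8. Of the 5 lymphocyte genes tested 4 were higher, with a median of 0.33, Cd3g at 0.33 and Cd4 at 0.20. That median was -0.79 with normexp on the local background and -0.05 with the slide as a block. All 3 erythroid genes tested were above every sham heart on adrenalectomized replicates 1 and 2 and below every sham heart on replicate 3. Their median difference was 0.77, which was 1.44 with the slide as a block, with Slc4a1 at 0.92 and Alas2 at 0.77. These are differences on the log2 scale except for the bound, none past the adjusted limma threshold.

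Because the operation removes the main source of the ligand of the glucocorticoid receptor, the 250 bases before the start of the genes were searched for the receptor's motif and for 4 other motifs on both strands, as a description. RefSeq promoter sequences on the build GRCm38.p6 were matched for 4 of the 8 genes, C1qb, C1s1, C3 and C3ar1, with 5 windows. The full response element, AGAACA and TGTTCT with any 3 bases between, was in none of these, and in 0.00913% of 32851 such windows of all genes. The short form AGAACA, which is contained in the full element, was in the windows of C1qb and C1s1 and in 16.1% of all. The C/EBP motif TTGCNNAA was in those of C3 and C1s1 and in 9.56% of all, and the PU.1 motif GAGGAA in that of C1qb and in 23.3% of all. The NF-kappaB motif, GGGA and TTTCC with any base between, and the IRF motif, GAAA repeated after any 2 bases, were in none of the 5 windows, against 0.356% and 2.98% of all. The windows of C1qb and C3, one for each of the patterns over the arrays, are printed with these matches in capitals, both from the minus strand. In C1qb, at chr4:136886201-136886450, the AGAACA match lies 178 to 173 and the GAGGAA match 30 to 25 bases before the start.
C1qb upstream: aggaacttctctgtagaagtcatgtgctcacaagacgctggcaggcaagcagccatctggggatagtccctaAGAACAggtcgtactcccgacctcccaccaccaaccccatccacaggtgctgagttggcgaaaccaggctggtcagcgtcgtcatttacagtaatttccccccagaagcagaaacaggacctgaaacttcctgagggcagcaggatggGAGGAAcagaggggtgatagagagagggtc
In C3, at chr17:57228137-57228386, the C/EBP match lies 45 to 38 bases before the start.
C3 upstream: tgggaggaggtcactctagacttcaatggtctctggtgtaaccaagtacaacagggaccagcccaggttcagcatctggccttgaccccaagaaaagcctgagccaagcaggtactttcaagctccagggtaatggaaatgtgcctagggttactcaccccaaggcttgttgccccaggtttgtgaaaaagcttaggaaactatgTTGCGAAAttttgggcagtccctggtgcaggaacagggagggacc
A match describes the letters only, and no match says only that these letters are not in the window.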

How the data were processed

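Per the labels' protocols, 50 ng of heart RNA went through whole-transcriptome amplification, and 5 µg of the cDNA was labelled with Cy3. Per the file headers, Feature Extraction 9.5.3.1 read the arrays (9.5 per the submitters' processing notes) with a protocol for 1-colour arrays, and the deposited processed signal is a linear intensity, with background subtracted and trends over the array removed, but not normalized between arrays. The deposited value table gave an identical intensity in 45018 of 45018 spots (relative tolerance 1e-05), so it is linear and not centred, with column medians of 75.1, 92.2 and 80.9 for adrenalectomized and 70.8, 68.1 and 84.4 for sham arrays.

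Log2 signals minus the array's 75th percentile were used, without control and outlier spots, and repeat spots were averaged. A probe was tested when well above background on all 3 arrays of a group (23988 of 41174 probes), and a gene was its tested probe of highest mean. RefSeq accessions updated names (22951 probes matched). Differences were fitted with limma 3.58.1 in R 4.3.3, and Python 3.11.15 with matplotlib 3.10.9 drew the figures. The fit was tested on simulated data. Of the 12 complement probes 11 were tested, with 0 saturated spots and 1 outlier spot.

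Named genes were the 8 members; from each other complement list those past the threshold, those with an unadjusted p under 0.05 or, failing both, the 2 of smallest p; from each other list the 2 of smallest p; and the 3 nearest to the member of widest range. One gene of the lists is counted but not reported here. The members and lists were chosen with earlier results of these data known. Alternatives were other background corrections, scalings, dim-probe filters, probe rules, slide or replicate blocks, variance models and each array left out.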

Additional observations from a re-analysis of the deposited data

Results flagged for a closer look

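The second C3ar1 probe, which no comparison used, was well above background on adrenalectomized replicate 2 at 0.0520 times the 75th percentile of its array, and on no sham array. Its signal was 0.0379 and 0.0383 in the other adrenalectomized hearts, against 0.0364, 0.0503 and 0.0337 in sham hearts, so sham replicate 2 was nearly as bright.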

How the results depend on the processing

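Each gene was recomputed under 25 alternatives, and the only call among the 8 was C3ar1 with normexp on the local background. That setting called 5949 genes (1220 higher, 4729 lower), in place of 7 (5 higher, 2 lower), with 1 of the 8 and 11 of the other complement genes among them, and moved the median of the 8 to 0.23. It turned C1qa, C1qb and Serping1 to 0.20, 0.10 and 0.25. The cause was not tested. Cfb and C3ar1 kept their direction throughout. C2 was -0.023 with quantile normalization, -0.034 with median centring, under which C1s was -0.00077, and -0.012 with the percentile over detected probes. C3 was -0.089 with the mean of its probes. With the slide as a fixed block or slide 1 alone, C1s was -0.053, C2 -0.096, C3 -0.048 and Serping1 0.15. Serping1 was 0.00067 with array weights. Leaving out each array gave -0.17 to 0.018 for C1qa, -0.042 to 0.088 for C1s, -0.10 to 0.14 for C2, -0.0087 to 0.21 for C3 and -0.17 to 0.054 for Serping1. Leaving out an array gave 1 to 42 genes passing, 42 of them without adrenalectomized replicate 1. The count was 0 with normexp on negative controls, 2 with the percentile over detected probes, 2 with the mean of probes and 2 with outlier spots kept. It was 1 with no filter, with a filter on all 6 arrays or on at least 1 array, with every probe tested and with the slide block. It was 43 on slide 1 alone, where a single adrenalectomized array stands for its group, 13 with a variance trend, 75 with array weights and 2078 unadjusted. Deviations of same-numbered arrays correlated at 0.158, 0.163 and -0.161. With 3 arrays a group these values cannot settle whether the numbers pair the hearts, and no label says that they do. With the replicate block 1 gene and none of the 8 passed, and C3ar1 there had an unadjusted limma p of 0.0389 at a difference of -0.44. Signal over background limits dim probes such as those of C3ar1 and the second one of C3.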
